A study of Mus musculus with 2 samples.

Results

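The genes of the proteasome were followed in RNA sequencing of mouse embryonic fibroblasts (MEFs), the primary connective tissue cells that grow out of a midgestation embryo. Members were the rows of the deposited table whose name began with PSMA to PSMG and a number, less 1 gene left out by the selection rule. This gave 48 of 25430 distinct names, each with a single row. Of the 48, 47 encode proteasome subunits, regulators or assembly chaperones. The remaining match, Psmc3ip, encodes a cofactor of meiotic recombination that shares the letters through an interaction partner. It was kept apart, at 4.13 FPKM in knockout MEFs and 3.87 FPKM in wild-type MEFs.

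One library came from fibroblasts knocked out for Sptbn1 and 1 from wild-type fibroblasts. Sptbn1 encodes beta-2 spectrin, a scaffold of the membrane skeleton, and the series title calls the knockout homozygous. Primary fibroblasts were made from E13.5 embryos of crosses between heterozygous Sptbn1+/- mice and grown in DMEM/F12 with fetal bovine serum. The comparison asks how transcript levels differ between these genotypes. With a single library on each side there is no replicate check and no test here, and every statement compares these 2 libraries and not the genotypes. Values are FPKM, fragments scaled to transcript length and to the mapped fragments of the library, as deposited.

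Sptbn1, listed under its older name Spnb2, was at 36.6 FPKM in knockout MEFs and 69.6 FPKM in wild-type MEFs (log2 ratio -0.91). This is 52.5% of wild type, so the targeted gene was lower in the library labelled knockout. The value does not by itself show a homozygous loss, and the source of the remaining transcript was not tested. The header of the second FPKM column carries both a wild-type and a -/- mark, and it was read as wild type because it holds that title.

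The proteasome is the large protease that degrades proteins marked with ubiquitin. Its barrel-shaped core is built from alpha rings, which form the gate, and beta rings, which hold the cutting sites. A regulatory particle on the end of the core binds ubiquitin, unfolds the substrate with a ring of ATPases and feeds it inward. PA28 is an alternative cap that works without ATP. In cells exposed to interferon the catalytic beta subunits of newly made cores are exchanged for immunoproteasome forms, which favour peptides that fit MHC class I molecules.

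The catalytic subunits come in such exchange pairs, Psmb5 with Psmb8, Psmb6 with Psmb9 and Psmb7 with Psmb10. Promoter windows from RefSeq (build GRCm38.p6, 250 bases before to 50 bases after the transcript start) were found for 39 of the 47 genes. The windows below belong to the members of the first 2 pairs, whose ratios differed in opposite directions between the libraries, and to Psme1, the PA28 gene with an interferon pattern. Each is printed 5′ to 3′ on the strand of its gene. Capitals mark the only searched patterns found there, TGACNNNGC (the core of the antioxidant response element, bound by the factor that restores proteasome genes when proteasomes are inhibited) or GAAA, any 2 bases and GAAA again (paired interferon response half-sites), each sought on both strands.
Psmb5 (chr14:54617946-54618245, minus strand): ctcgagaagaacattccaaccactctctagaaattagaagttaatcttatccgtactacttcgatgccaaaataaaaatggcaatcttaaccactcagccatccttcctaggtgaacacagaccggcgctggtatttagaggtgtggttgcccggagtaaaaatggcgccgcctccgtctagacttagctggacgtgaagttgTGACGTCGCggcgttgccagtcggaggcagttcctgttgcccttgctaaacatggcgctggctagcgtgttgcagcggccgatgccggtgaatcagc
Psmb8 (chr17:34197945-34198244, plus strand): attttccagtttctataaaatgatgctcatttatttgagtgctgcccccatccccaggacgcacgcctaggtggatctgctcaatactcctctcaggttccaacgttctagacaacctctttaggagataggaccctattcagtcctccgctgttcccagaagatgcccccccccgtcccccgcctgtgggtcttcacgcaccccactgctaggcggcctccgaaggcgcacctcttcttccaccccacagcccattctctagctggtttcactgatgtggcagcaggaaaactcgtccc
Psmb6 (chr11:70525107-70525406, plus strand): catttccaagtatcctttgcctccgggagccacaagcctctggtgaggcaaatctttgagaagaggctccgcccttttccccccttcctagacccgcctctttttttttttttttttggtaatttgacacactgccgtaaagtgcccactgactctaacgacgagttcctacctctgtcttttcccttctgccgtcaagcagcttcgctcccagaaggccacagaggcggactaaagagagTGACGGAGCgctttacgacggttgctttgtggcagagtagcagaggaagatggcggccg
Psmb9 (chr17:34187281-34187580, minus strand): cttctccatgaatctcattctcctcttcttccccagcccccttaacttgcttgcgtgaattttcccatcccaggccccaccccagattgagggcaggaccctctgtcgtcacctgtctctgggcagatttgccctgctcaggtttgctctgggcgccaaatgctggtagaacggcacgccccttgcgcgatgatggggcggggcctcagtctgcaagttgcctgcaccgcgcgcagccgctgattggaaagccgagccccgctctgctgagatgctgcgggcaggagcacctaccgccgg
Psme1 (chr14:55578244-55578543, plus strand): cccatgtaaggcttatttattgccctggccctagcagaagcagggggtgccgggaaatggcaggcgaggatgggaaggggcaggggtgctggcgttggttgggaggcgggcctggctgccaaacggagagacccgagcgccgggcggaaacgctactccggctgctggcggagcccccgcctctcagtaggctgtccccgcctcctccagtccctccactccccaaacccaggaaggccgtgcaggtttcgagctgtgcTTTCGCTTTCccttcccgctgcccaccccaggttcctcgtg

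The first pattern began at position -47 from the transcript start (position 0) in the Psmb5 window and at position -9 in the Psmb6 window. It was in 5 of the 39 promoters of proteasome genes (12.8%), the others being Psmc6, Psmd9 and Psmd12, and in 3781 of the 27025 genes of the whole promoter table. The second pattern was in 5 of the 39 (12.8%), namely Psmb3, Psmd4, Psmd9, Psme1 and Psmg4, and in 3.99% of all genes. In the Psme1 window it stands on the opposite strand, at position 9. The Psmb8 and Psmb9 windows held neither. These are letter matches within a short window and no measure of binding. Psmb9 and Tap1, a peptide transporter gene of antigen presentation, start 226 bases apart on opposite strands, and their windows overlap by 275 bases.

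Of the 47 genes, 45 were measured, which means a mean of 1 FPKM or more over both libraries. The exceptions were forms restricted to other tissues. Psma8, the testis form of an alpha subunit, was at 0.108 FPKM in knockout MEFs and 0.268 FPKM in wild-type MEFs. Psmb11, the beta subunit of the thymic cortex, was listed at 0 in knockout MEFs and at 0.00836 FPKM in wild-type MEFs. The measured proteasome genes were expressed well above most genes. Their median of the mean FPKM was 21.8, against 5.41 for all 11070 measured genes, and 39 of the 45 lay above that of the median gene. They summed to 1115 FPKM in knockout MEFs and 1144 FPKM in wild-type MEFs.

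**Figure D1:**
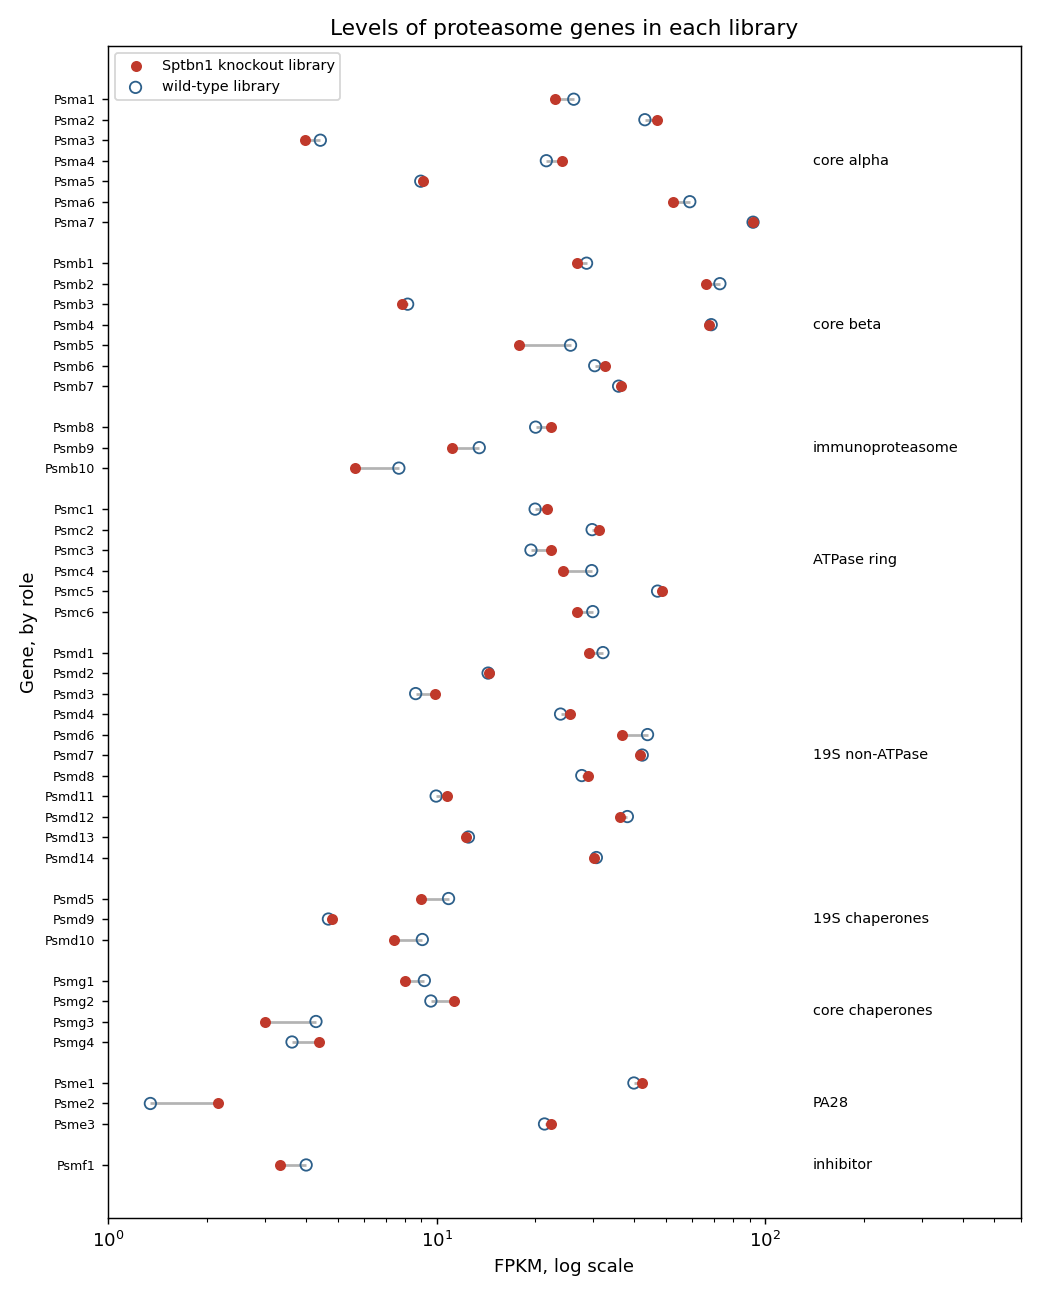
FPKM (log scale) of the 45 measured proteasome genes, grouped by role, in the Sptbn1 knockout library (filled red) and the wild-type library (open blue). The grey line joins the values of a gene. For most genes the symbols nearly touch, while the genes themselves are spread from 1.34 FPKM (Psme2, wild type) to 92.0 FPKM (Psma7, wild type).

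Differences are given as log2((knockout FPKM + 1)/(wild-type FPKM + 1)), a scale on which differences of low genes come out too small, and folds are counted on it. The 45 genes were close to equal in the libraries, with a median log2 ratio of -0.02, against -0.05 for all measured genes. Above 0 were 21 of the 45 (46.7%), where the background share was 36.9%, and 20 lay within 0.1 of 0 (44.4%, against 44.5% of all measured genes). Past 1.2-fold on the higher side was 1 of the 45 (2.22%), Psme2, against a background of 5.54%. Past 1.2-fold on the lower side were 4 (8.89%), Psmb5, Psmg3, Psmb10 and Psmc4, against a background of 10.6%. None passed 1.5-fold in either direction, where the background was 2.27%, although the plain FPKM of Psme2 was 161% of wild type. These shares are no larger than those of the measured genes at large, apart from the share above 0.

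In the authors' deposited table none of the 45 genes had a p-value below 0.05, against 5.60% of all measured genes, and the lowest was 0.109 for Psmb5. The p-value and the plain FPKM ratio of the authors' deposited table together imply a standard error, whose median over the 45 genes was 0.20 on the log2 scale, with a range of 0.17 to 0.66. For 36 of the 45 genes the plain log2 ratio was smaller in size than that standard error. Because the standard error was derived from the p-value, this count restates the p-values and is no separate evidence. With 1 library per genotype, no spread between cultures of the same genotype could be measured for these p-values.

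The zero point of these ratios depends on the scaling. The deposited FPKM summed to 279927 in knockout MEFs and 386567 in wild-type MEFs. On a common FPKM sum the median of all measured genes moved up by 0.39, and 34 of the 45 proteasome genes were then at least 1.2-fold higher and 0 lower, against a background of 66.4% higher. Psmb5 and Psmg3 were the proteasome genes still below 0 on that scale. With small RNA names and rows over 1% of a sum left out of the sums, the median of all measured genes moved up by only 0.05. A common upper quartile also moved it up by 0.05. Each of these last 2 scalings, and centring on the median gene, gave 3 at least 1.2-fold higher and 3 lower. With each of them 27 of the 45 genes lay above 0 and 18 below, against 21 and 24 on the deposited scale. Every direction below is on the deposited scale.

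**Figure D2:**
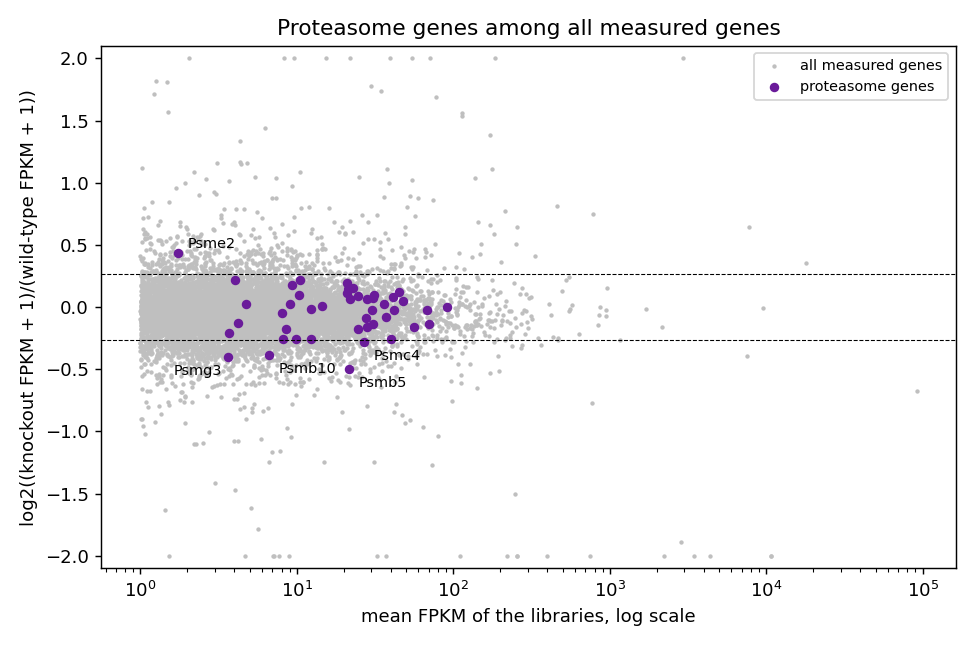
Mean FPKM of both libraries (log scale) against log2((knockout FPKM + 1)/(wild-type FPKM + 1)) for the 11070 measured genes (grey) and the 45 proteasome genes (purple). Dashed lines mark 1.2-fold; 29 genes beyond 2 on the log2 axis are drawn at its edge. The proteasome genes lie inside the cloud, with Psme2 above and Psmb5, Psmg3, Psmb10 and Psmc4 below the dashed lines.

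The alpha ring genes, which encode the outer rings and gate of the core, had a median log2 ratio of 0.00. Of the 7, 3 lay above 0 (42.9%, against 36.9% of all measured genes) and none passed 1.2-fold. Psma7 was the most abundant proteasome gene, at 91.9 FPKM in knockout MEFs and 92.0 FPKM in wild-type MEFs. Psma6 was at 52.6 FPKM in knockout MEFs and 59.0 FPKM in wild-type MEFs (-0.16), and Psma2 at 47.0 FPKM in knockout and 43.1 FPKM in wild-type MEFs (0.12). Psma4 had the highest ratio of the ring, at 24.1 FPKM in knockout MEFs and 21.6 FPKM in wild-type MEFs (0.15), and Psma1 the lowest, at 23.0 FPKM in knockout and 26.2 FPKM in wild-type MEFs (-0.18). Psma5 and Psma3 were the least abundant. Psma5 was at 9.13 FPKM in knockout MEFs and 8.95 FPKM in wild-type MEFs (0.02), and Psma3 at 3.97 FPKM in knockout and 4.43 FPKM in wild-type MEFs (-0.13). Although each alpha protein occurs in equal copy in a ring, their transcript levels per length differed 23.1-fold between the highest and lowest gene in knockout MEFs and 20.8-fold in wild-type MEFs.

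The constitutive beta subunits had a median of -0.05, with 2 of 7 above 0 (28.6%, against 36.9% of all measured genes). The non-catalytic Psmb2 and Psmb4 were the most abundant, at 66.4 and 67.5 FPKM in knockout MEFs and 72.9 and 68.6 FPKM in wild-type MEFs. Psmb1 was at 26.8 FPKM in knockout MEFs and 28.6 FPKM in wild-type MEFs (-0.09), and Psmb3, the lowest of the beta genes, at 7.86 FPKM in knockout and 8.17 FPKM in wild-type MEFs (-0.05). Of the catalytic subunits, Psmb6 and Psmb7 lay slightly above 0 and Psmb5 below it. Psmb6, the caspase-like site, was at 32.5 FPKM in knockout MEFs and 30.3 FPKM in wild-type MEFs (0.10). Psmb7, the trypsin-like site, was at 36.5 FPKM in knockout and 35.8 FPKM in wild-type MEFs (0.02).

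Psmb5, which encodes the chymotrypsin-like site and is the main target of proteasome inhibitor drugs, had the lowest ratio of all 45 genes. It was at 17.8 FPKM in knockout MEFs and 25.6 FPKM in wild-type MEFs, a log2 ratio of -0.50, which is 69.6% of the wild-type value. The other 13 constitutive core genes lay between -0.18 and 0.15, or between 87.9% and 112% of wild type, so Psmb5 stood outside the range of its partners in the particle. In the authors' deposited table its p-value was 0.109, with an implied standard error of 0.33. On a common FPKM sum its ratio was -0.05, still the lowest of the 45 genes. Psmb5 has a near-identical pseudogene copy, so its level is uncertain.

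**Figure D3:**
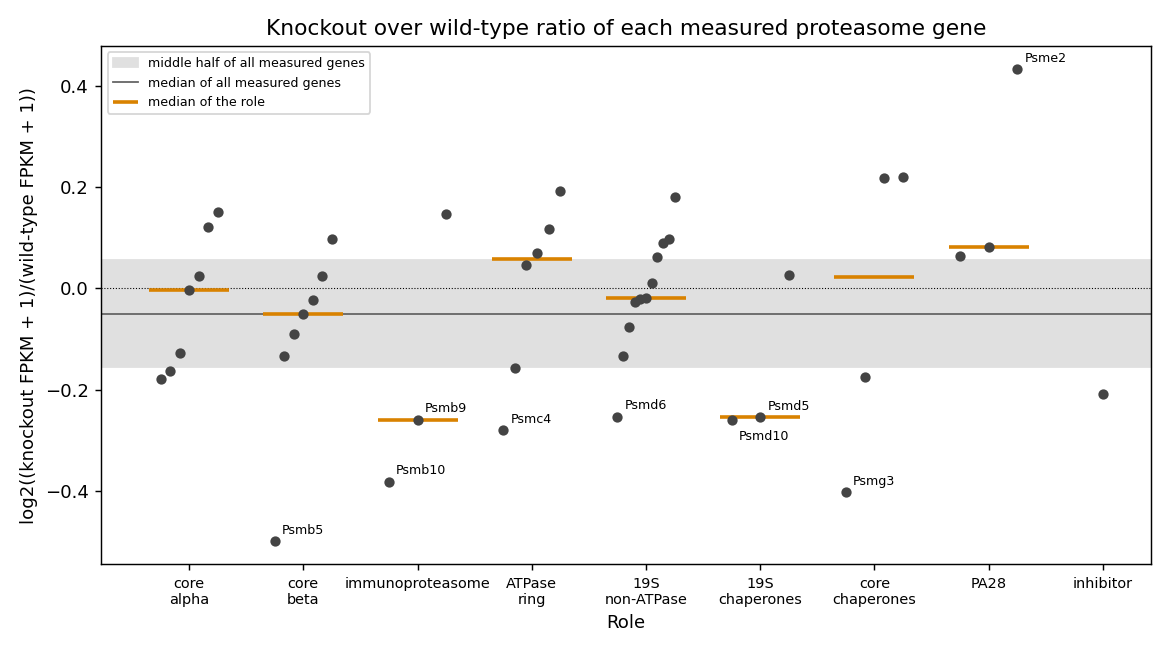
Log2((knockout FPKM + 1)/(wild-type FPKM + 1)) of each measured proteasome gene by role (points), with the median of each role of more than 1 gene (orange bar). The grey band holds the middle part of all measured genes, from their lower quartile of -0.16 to their upper quartile of 0.06, and the grey line is their median. Psmb5 at -0.50 and Psme2 at 0.43 are the extremes.

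The immunoproteasome genes went different ways. Psmb8, the counterpart of Psmb5, was at 22.3 FPKM in knockout MEFs and 20.04 FPKM in wild-type MEFs (0.15). Psmb9, the counterpart of Psmb6, was at 11.1 FPKM in knockout MEFs and 13.49 FPKM in wild-type MEFs (-0.26). Psmb10, the counterpart of Psmb7, was at 5.66 FPKM in knockout MEFs and 7.68 FPKM in wild-type MEFs (-0.38). Psmb9 and Psmb10 were thus lower and Psmb8 higher in knockout MEFs, and on a common FPKM sum all were above 0. In the authors' deposited table their p-values were 0.463 for Psmb8, 0.345 for Psmb9 and 0.149 for Psmb10.

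The ratio of an immunoproteasome gene to its counterpart within a library does not depend on the scaling between libraries. Psmb8 over Psmb5 was 1.25 in knockout MEFs and 0.783 in wild-type MEFs, so Psmb8 was the higher of the pair in knockout MEFs and the lower in wild-type MEFs. Psmb9 over Psmb6 was 0.342 in knockout MEFs and 0.445 in wild-type MEFs. Psmb10 over Psmb7 was 0.155 in knockout MEFs and 0.214 in wild-type MEFs. The first pair therefore differed 1.60-fold in one direction and the others by 0.768-fold and 0.724-fold in the opposite one. Summed over the pairs, immunoproteasome genes made up 31.0% of the catalytic subunit FPKM in both libraries.

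**Figure D4:**
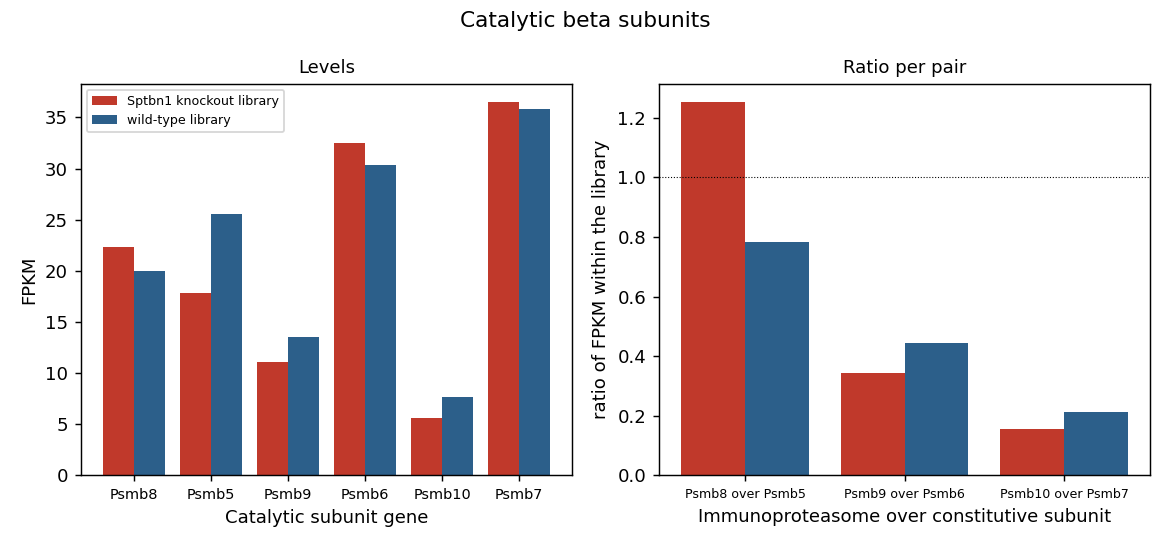
Left, FPKM of the catalytic beta subunit genes in the Sptbn1 knockout library (red) and the wild-type library (blue), each immunoproteasome gene beside its constitutive counterpart. Right, the ratio of each pair within a library, with the dotted line at equal levels; Psmb8 over Psmb5 is 1.25 in knockout MEFs and 0.783 in wild-type MEFs, while the other pairs are lower in knockout MEFs.

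Immunoproteasome genes are constitutively expressed in leukocytes, and such cells can be present in embryo fibroblast cultures. All 16 macrophage and leukocyte markers examined were measured in both libraries, and none was at 0. They summed to 840 FPKM in knockout MEFs and 1338 FPKM in wild-type MEFs, with a median log2 ratio of -0.41. Of the 16, 14 were lower in knockout MEFs, where 63.1% of all measured genes lay below 0. At least 1.2-fold lower were 10 of the 16, against a background of 10.6%. Most of each sum came from the joined entry of the lysozyme genes Lyz1 and Lyz2, at 572 FPKM in knockout MEFs and 979 FPKM in wild-type MEFs (-0.77). The complement gene C1qb had the lowest ratio of the markers, at 13.7 FPKM in knockout MEFs and 25.4 FPKM in wild-type MEFs (-0.85). The markers that were not lower were Aif1, at 4.25 FPKM in knockout MEFs and 3.55 FPKM in wild-type MEFs (0.21), and the general leukocyte marker Ptprc, at 2.55 FPKM in knockout MEFs and 2.52 FPKM in wild-type MEFs (0.01). Fewer such cells and less RNA per cell cannot be told apart in bulk RNA, and the part of these cells in the immunoproteasome values was not tested. All 10 fibroblast markers were well above the measured limit, from 29.7 to 939 FPKM in knockout MEFs and from 35.3 to 957 FPKM in wild-type MEFs.

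Of 8 listed genes that act with the immunoproteasome in interferon response and antigen presentation, 6 were measured, 2 of them above 0 and 4 below. Of all measured genes, 63.1% lay below 0, so this count is near the background. Tap1, the divergent neighbour of Psmb9, was at 4.68 FPKM in knockout MEFs and 4.53 FPKM in wild-type MEFs (0.04), and the paired transporter gene Tap2 at 2.60 FPKM in knockout and 2.42 FPKM in wild-type MEFs (0.07). The interferon-responsive transcription factor gene Irf1 was at 6.35 FPKM in knockout and 7.05 FPKM in wild-type MEFs (-0.13). B2m, the light chain of MHC class I, was at 1057 FPKM in knockout MEFs and 1269 FPKM in wild-type MEFs (-0.26). Ifng, the gene of interferon gamma itself, was listed at 0 in both libraries.

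The regulatory particle genes were spread about 0, with a median log2 ratio of 0.01. Above 0 were 9 of 17 (52.9%, against 36.9% of all measured genes). The ATPases that unfold the substrate ranged from 21.7 to 48.7 FPKM in knockout MEFs and from 19.4 to 47.1 FPKM in wild-type MEFs, a 2.24-fold spread in knockout MEFs and 2.43-fold in wild-type MEFs. Psmc4 had the lowest ratio, at 24.3 FPKM in knockout MEFs and 29.7 FPKM in wild-type MEFs (-0.28, and 0.17 on a common FPKM sum). Psmc3 had the highest, at 22.3 FPKM in knockout and 19.4 FPKM in wild-type MEFs (0.19). Psmc5, the most abundant ATPase gene, was at 48.7 FPKM in knockout and 47.1 FPKM in wild-type MEFs (0.05), and Psmc1 (0.12), Psmc2 (0.07) and Psmc6 (-0.16) lay between the extremes. Of the 6 ATPases, 4 were above 0 (66.7%) and 2 below.

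The non-ATPase subunits of the regulatory particle had 5 of 11 genes above 0 (45.5%, against 36.9% of all measured genes) and none past 1.2-fold. Psmd6, a scaffold subunit of the lid, was at 36.7 FPKM in knockout MEFs and 43.9 FPKM in wild-type MEFs (-0.25). Psmd3, another lid subunit, was at 9.92 FPKM in knockout and 8.64 FPKM in wild-type MEFs (0.18). The deubiquitinase gene Psmd14, which removes ubiquitin from the substrate before it enters, was at 30.1 FPKM in knockout and 30.7 FPKM in wild-type MEFs (-0.03). Its binding partner Psmd7 was at 41.7 FPKM in knockout and 42.3 FPKM in wild-type MEFs (-0.02). The large scaffold genes Psmd1 and Psmd2 were at 29.2 and 14.5 FPKM in knockout MEFs and 32.1 and 14.4 FPKM in wild-type MEFs. The ubiquitin receptor gene Psmd4 was at 25.5 FPKM in knockout and 23.9 FPKM in wild-type MEFs (0.09). The remaining lid genes had ratios between -0.08 (Psmd12) and 0.10 (Psmd11), with Psmd8 at 0.06 and Psmd13 at -0.02.

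PA28 was the set in which all 3 members lay above 0, but by little for the abundant ones. The background share above 0 was 36.9%. Psme1, the alpha subunit of the interferon-inducible cap, was at 42.3 FPKM in knockout MEFs and 39.9 FPKM in wild-type MEFs (0.08). Psme3, the nuclear gamma form, was at 22.3 FPKM in knockout and 21.3 FPKM in wild-type MEFs (0.06). Psme2, the beta subunit that assembles with the product of Psme1, was at 2.16 FPKM in knockout MEFs and 1.34 FPKM in wild-type MEFs, a log2 ratio of 0.43 and the highest of the 45 genes. Psme2 over Psme1 was 0.0512 in knockout MEFs and 0.0337 in wild-type MEFs. Psme2 was the least abundant measured proteasome gene, its p-value in the authors' deposited table was 0.298, and its transcript is near-identical to that of Psme2b, so its level and its difference are uncertain. Psmf1, which encodes the proteasome inhibitor PI31, was at 3.34 FPKM in knockout MEFs and 4.01 FPKM in wild-type MEFs (-0.21).

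The 7 assembly chaperones among the members, which help build the particle and leave it when it is finished, had lower levels than most subunits. Their median level was 0.249 of that of the constitutive core in knockout MEFs and 0.307 in wild-type MEFs. The median level of the regulatory particle was 0.900 of the core in knockout MEFs and 1.01 in wild-type MEFs. That median falls on Psmc6 in knockout MEFs and on Psmc4 in wild-type MEFs, so these values show no fall of the particle against the core. Gene by gene, the median log2 ratio was 0.01 for the particle and -0.04 for the core. Pomp, a core chaperone outside the name pattern, was higher, at 71.9 FPKM in knockout MEFs and 68.1 FPKM in wild-type MEFs. Of the chaperones of the base of the regulatory particle, Psmd10 (gankyrin) was at 7.40 FPKM in knockout MEFs and 9.05 FPKM in wild-type MEFs (-0.26), and Psmd5 at 8.96 FPKM in knockout and 10.9 FPKM in wild-type MEFs (-0.25). The third, Psmd9, was at 4.79 FPKM in knockout and 4.69 FPKM in wild-type MEFs (0.03).

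The core chaperones among the members work as pairs on the alpha ring. Psmg1 was at 8.02 FPKM in knockout MEFs and 9.18 FPKM in wild-type MEFs (-0.17), and its partner Psmg2 at 11.3 FPKM in knockout and 9.61 FPKM in wild-type MEFs (0.22). Psmg3 was at 3.01 FPKM in knockout MEFs and 4.30 FPKM in wild-type MEFs (-0.40), and its partner Psmg4 at 4.39 FPKM in knockout and 3.63 FPKM in wild-type MEFs (0.22). In each pair 1 partner was below and the other above 0, and in the second pair Psmg4 was the higher in knockout MEFs and Psmg3 in wild-type MEFs. The p-values of Psmg3 and Psmg4 were 0.222 and 0.634 in the authors' deposited table. On a common FPKM sum Psmg3 was at -0.04.

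Processed copies of proteasome genes are common in the mouse genome, and fragments that match several places can be divided or lost in counting. Of the 45 measured genes, 8 had at least 1 pseudogene transcript of at least 95% identity over 300 bases or more in GENCODE M21, namely Psma3, Psma4, Psma5, Psmb3, Psmb5, Psmc1, Psmd2 and Psmd11. Their median of the mean FPKM was 12.4 with a highest value of 22.8, against a median of 27.0 and a highest value of 91.9 for the 37 genes without such a copy. The least abundant core genes, Psma3 and Psmb3, had 3 copies each, and Psma5, the next, had 2. Psmd1 and Psmd13 share sequence with another annotated gene and their levels are likewise uncertain. Whether copies account for the uneven levels within the core was not tested.

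Partners that act on or beside the proteasome were mostly near 0 as well. Of 26 listed genes 25 were found and measured, with 8 above and 17 below 0 and a median of -0.08. Of all measured genes, 63.1% lay below 0, so this count is near the background. At least 1.2-fold higher were 2 of the 25 and lower 1, against backgrounds of 5.54% and 10.6%. Past 1.5-fold was 1, against a background of 2.27%. Shfm1, the smallest subunit of the regulatory particle, was at 47.5 FPKM in knockout MEFs and 34.2 FPKM in wild-type MEFs (0.46), where the authors' deposited table has p = 0.0579. The polyubiquitin gene Ubb was at 54.3 FPKM in knockout and 64.0 FPKM in wild-type MEFs (-0.23).

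Other partners lay closer to 0. Nfe2l1, which encodes the transcription factor that raises proteasome gene expression when degradation is impaired, was at 31.6 FPKM in both libraries. The genes that process this factor, Ddi2 (joined with Rsc1a1 in the table) and Ngly1, were at 5.13 FPKM in knockout and 5.56 FPKM in wild-type MEFs (-0.10) and at 4.30 FPKM in knockout and 5.14 FPKM in wild-type MEFs (-0.21). Pomp, the chaperone that completes the core, was at 71.9 FPKM in knockout and 68.1 FPKM in wild-type MEFs (0.08), and the unfoldase gene Vcp at 12.7 FPKM in knockout and 11.7 FPKM in wild-type MEFs (0.11). The deubiquitinase genes Usp14 and Uchl5 were both at -0.08, and the ubiquitin receptor gene Adrm1 was at -0.06.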

How the data were processed

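Total RNA of 1 library per genotype was sequenced on an Illumina HiSeq 2000, per the labels' protocols and the series' design text. The same text names FastQC and Trimmomatic, TopHat2 version 2.0.10 to NCBI mouse build 37.2, Cufflinks, and Cuffdiff2. The authors deposited FPKM for each gene and library and a p-value for each gene. The sources used here give no fragment totals, so no interval or detection floor was computed, and counting strand is not stated either.

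With Python 3.11.15, pandas 2.3.3 and scipy 1.17.1, log2 ratios were computed from the FPKM with a pseudocount of 1, on the deposited scale. A gene was called measured where its 2 libraries averaged at least 1 FPKM. A standard error was derived from the authors' p-value and the plain ratio. There is no test of differences. The ratio step was run on simulated data without noise, which checks its arithmetic and not how well real differences are found. The named genes were all members, with examples from the lists of partners and markers, of which a few are not reported here, and members and lists were chosen with earlier results of these data known. Copies were found with BLAST 2.17.0 among GENCODE M21 transcripts. That annotation and the RefSeq promoters are on GRCm38, another build than that of the reads, and no position was transferred. Alternatives were a pseudocount of 0.1, other scalings, limits of 5 FPKM or none, and summing rows of a name.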

Additional observations from a re-analysis of the deposited data

How the results depend on the processing

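With 1 library per genotype no left-out replicate or spread could be computed. No paired analysis was possible because each genotype had 1 library. A value was taken as unmoved within 0.1 on the log2 scale, a ratio or count within 1.5 times. Of 288 member ratios recomputed under an alternative, 239 were unmoved, but most of these could not move. Each name had a single row, so summing rows changed nothing. A common upper quartile, the common sum without small RNA names and large rows, and centring shift all genes by nearly the same amount, below the 0.1 limit. On a common FPKM sum only the unmeasured Psma8 and Psmb11 were unmoved. On a common FPKM sum, Psmb10 turned to 0.022 and Psmc4 to 0.17. There the medians were 0.43 for all 45 genes, 0.40 for the core, 0.17 for the immunoproteasome, 0.45 for the regulatory particle, 0.54 for PA28 and 0.24 for the chaperones. By role they were 0.44 for the alpha and 0.36 for the beta subunits, 0.51 for the ATPases, 0.43 for the non-ATPases, 0.17 for the chaperones of the regulatory particle and 0.42 for those of the core. That scale had 34 genes at least 1.2-fold higher and 0 lower, 43 above 0 and 2 below. A pseudocount of 0.1 FPKM gave 2 at least 1.2-fold higher and 7 lower. A common upper quartile, a common sum without small RNA names and rows over 1% of a sum, and centring on the median gene each gave 3 higher, and a mean of 5 FPKM or more gave 0. With a pseudocount of 1 FPKM, Psme2 over Psme1 was 0.0573 in the wild-type library. The cause of these moves was not tested. By these limits the other recomputed medians and counts over these genes, and the other ratios within a library, were unmoved. Small values near 0 still changed sign. A common upper quartile, the common sum with those rows left out, and centring each gave 27 genes above 0 and 18 below. There the median over the 45 genes was 0.04, 0.04 and 0.03, against -0.02 on the deposited scale. Depth is unknown, and low genes such as Psme2 and Psmg3 are the least certain.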
